A study of Mus musculus with 6 samples.

Results

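The miRNA family of miR-130 and miR-301 was followed in RAW 264.7 cells, a transformed mouse macrophage-like line, with and without oxidized low-density lipoprotein (ox-LDL). Its 6 entries (mmu-miR-301a-3p, mmu-miR-301a-5p, mmu-miR-301b-3p, mmu-miR-130a-3p, mmu-miR-130b-3p and mmu-miR-130b-5p) were taken by name from the 1109 mature microRNAs (miRNAs) of the deposited count table. The control group consisted of 3 libraries from cells without treatment and the oxLDL group of 3 from cells exposed to ox-LDL for 48 h, with 5502826 to 7373188 miRNA reads each. The control columns carry the label 0 h, so the treatment and the time in culture cannot be told apart. Whether the libraries came from separate cultures is not stated, and the spread behind each p-value may therefore be technical.

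A miRNA hairpin is cut into a short duplex of a 5p and a 3p strand. One strand, the guide, is kept by Argonaute and pairs with messenger RNAs through its seed, bases 2 to 8, and the other, the passenger, is mostly degraded. In this family the 3p arms are the usual guides. These guides are known repressors of PPARG, a nuclear receptor that oxidized lipids can activate in macrophages and that raises the scavenger receptor CD36, through which ox-LDL is taken up. The miR-130b and miR-301b guides have also been described as repressors of the LDL receptor and of the cholesterol exporter ABCA1, and miR-301a as an activator of NF-kB signalling in human cancer cells.

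The mature sequences show which arms can act on the same sites, since each guide below carries the same seed (capitals, bases 2 to 8; RefSeq, GRCm38.p6).
miR-301a-3p: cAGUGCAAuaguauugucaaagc
miR-130b-3p: cAGUGCAAugaugaaagggcau
miR-130a-3p: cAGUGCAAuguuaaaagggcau
The passenger arms follow, again with bases 2 to 8 in capitals. The 5p arm of miR-301b, which the count table lists but which is not among the 6 entries, is shown with them.
miR-301a-5p: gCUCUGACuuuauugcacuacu
miR-301b-5p: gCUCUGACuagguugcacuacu
miR-130b-5p: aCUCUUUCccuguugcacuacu
Aligned from the first base, the miR-130a and miR-130b guides were the same at 20 of 22 positions, whereas miR-301a-3p and miR-130b-3p were the same at 11. The passengers of miR-301a and miR-301b shared their seed and 19 of 22 positions, and that of miR-130b had another seed. The sources used here do not say how reads of such near-identical arms were divided.

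Each of the 3 passengers shown holds, from base 13, the stretch UUGCACU, the reverse complement of the guide seed (searched on the mature strand, at any position). Of the 957 listed entries with a RefSeq sequence, 7 hold these letters (0.731%), the other 4 being miR-25-3p, miR-92a-3p, miR-92b-3p and miR-6937-3p. The passenger of the remaining family hairpin, miR-130a-5p, which the count table does not list, does not hold them. The hairpins of miR-301a and miR-130b are printed here with their mature arms in capitals, to show where the passenger and the guide lie.
Mir301: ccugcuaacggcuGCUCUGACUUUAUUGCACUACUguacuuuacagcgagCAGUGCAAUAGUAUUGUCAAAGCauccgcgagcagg
Mir130b: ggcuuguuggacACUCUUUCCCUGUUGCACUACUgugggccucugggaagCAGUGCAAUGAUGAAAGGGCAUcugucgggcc

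The hairpins come from 3 places in the genome (GRCm38). The miR-301a hairpin lies at chr11:87113004-87113089 on the plus strand, in an intron of Ska2 on the same strand; Ska2 encodes a protein of the spindle and kinetochore. The miR-130b hairpin (chr16:17124061-17124142) and the miR-301b hairpin (chr16:17124400-17124496), both on the minus strand, are 257 bases apart in an intron of 2610318N02Rik. The miR-130a hairpin (chr2:84741115-84741178, minus strand) overlapped no gene other than its own, and the nearest was Gm19426, 990 bases away.

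After ox-LDL the passenger arms of the family fell, whereas none of the guide arms tested passed as lower. The largest change among the tested arms of the family was that of miR-301a-5p, which fell 3.47 times. The passengers miR-130b-5p and miR-301b-5p fell 1.64 and 1.79 times, the latter at low counts and not in every setting, and miR-130b-3p, the most abundant arm of the family, rose 1.23 times, a call that was lost in many settings. The guides miR-301a-3p and miR-301b-3p did not pass the test. In RNA from whole cultures, fewer cells that make a miRNA and less of it per cell cannot be told apart.

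The filter on low counts left 5 of the 6 entries, and edgeR's quasi-likelihood test called 3 of these at an adjusted p under 0.05, with 2 lower and 1 higher in oxLDL. Over all 475 tested entries the test called 45.7%, with 24.0% lower and 21.7% higher, so a call alone does not set a member apart. The log2 fold changes of the 5 members ran from -1.79 to 0.29, and over the 475 entries the median was -0.13. Levels are given in CPM, counts divided by each library's size after TMM correction.

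**Figure D1:**
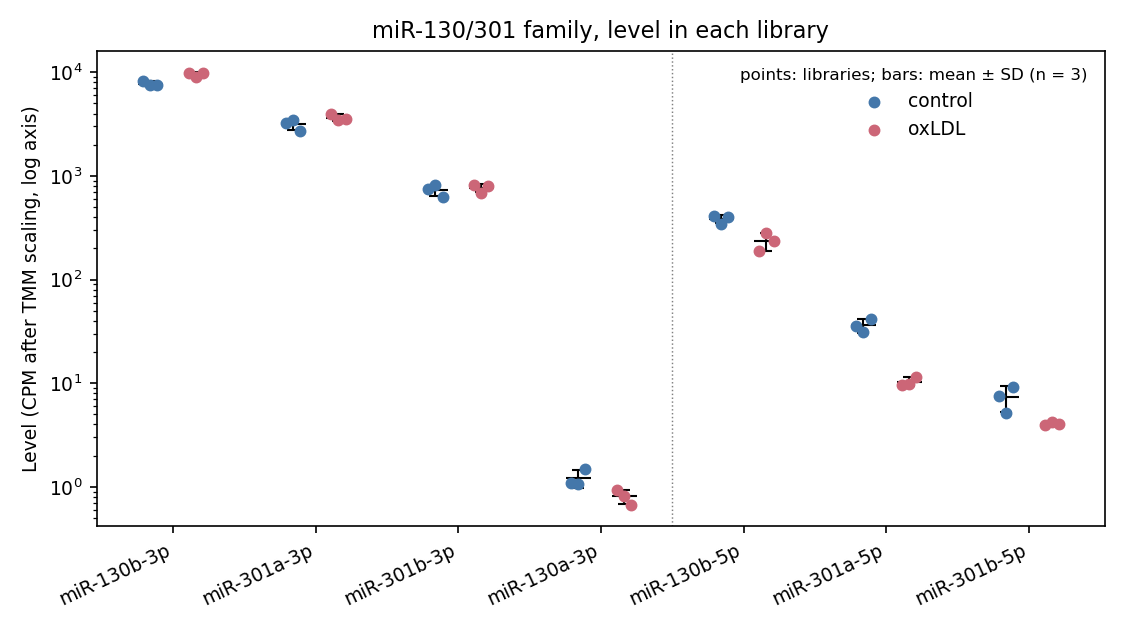
Level of each family arm in each library, in CPM after TMM scaling on a log axis, with control in blue, oxLDL in red, and bars for the mean ± SD (n = 3). Of the 3p arms on the left, those of miR-130b and miR-301a are a little higher in every oxLDL library than in any control, the latter by a narrow margin. The groups overlap for the 3p arm of miR-301b. Of the 475 tested entries, 59.4% had groups that did not overlap. The 3p arm of miR-130a, at a very low level, is lower in every oxLDL library than in any control. The 5p arms on the right are lower in every oxLDL library, most clearly miR-301a-5p.

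Among the guides, miR-130b-3p was at 8213, 7572 and 7553 CPM in control and at 9757, 9049 and 9827 CPM in oxLDL. Every oxLDL library lay above every control library. The means were 7779 ± 376 and 9544 ± 430 CPM (SD, n = 3), with a log2 fold change of 0.29 (SE 0.0883, edgeR adjusted p = 0.0268). This call was lost with library totals in place of TMM scaling (log2 fold change 0.14, edgeR adjusted p = 0.205). It was also lost with no filter on low counts (edgeR adjusted p = 0.0976). Over entries with a mean of at least 10 CPM it was lost as well (edgeR adjusted p = 0.0803). With the replicate number as a block it did not pass (edgeR adjusted p = 0.108). Nor did it pass without control replicate 2 or 3 or any 1 oxLDL library (edgeR adjusted p = 0.0548 to 0.117). The call held without control replicate 1 (edgeR adjusted p = 0.0483) and with RLE factors (edgeR adjusted p = 0.0138). It also held after centring on the median tested entry (edgeR adjusted p = 0.00555). DESeq2 (adjusted p = 0.0309) and limma-voom (adjusted p = 0.0271) kept it too.

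The second guide, miR-301a-3p, stood at 3232, 3474 and 2713 CPM in control and at 3967, 3484 and 3528 CPM in oxLDL. The groups did not overlap, but control replicate 2 and oxLDL replicate 2 were nearly level. Among the 475 tested entries, 59.4% had groups that did not overlap, 28.2% with oxLDL higher and 31.2% with oxLDL lower. The log2 fold change was 0.22 (95% interval -0.06 to 0.50, edgeR adjusted p = 0.161). It was 0.35 after centring on the median tested entry, where it passed (edgeR adjusted p = 0.0436), and 0.07 with library totals.

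The clustered guide miR-301b-3p was at 749.9, 808.3 and 632.9 CPM in control and at 823.9, 690.9 and 792.3 CPM in oxLDL. The groups overlapped. Its log2 fold change was 0.07 (95% interval -0.24 to 0.38, edgeR adjusted p = 0.672), and it turned to -0.07 with library totals, to -0.04 over entries with a mean of at least 10 CPM, and to -0.05 without control replicate 3. On the linear scale the interval runs from 0.849 to 1.31 times the control level.

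The miR-130a guide was hardly detected. Its reads numbered 8, 8 and 11 in the control libraries and 5, 5 and 4 in oxLDL, too few for the test. With no filter on low counts the log2 fold change was -0.57 (SE 0.570, edgeR adjusted p = 0.568), so no difference was detected at these low counts. Whether more depth would show one was not tested. Its passenger miR-130a-5p is not listed in the table. Among the 957 listed entries with a RefSeq mature sequence, which do not include miR-301b-3p, the same seed is carried by 4: the guides miR-301a-3p, miR-130b-3p and miR-130a-3p, and miR-6341, with 1 read in 1 control library.

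**Figure D2:**
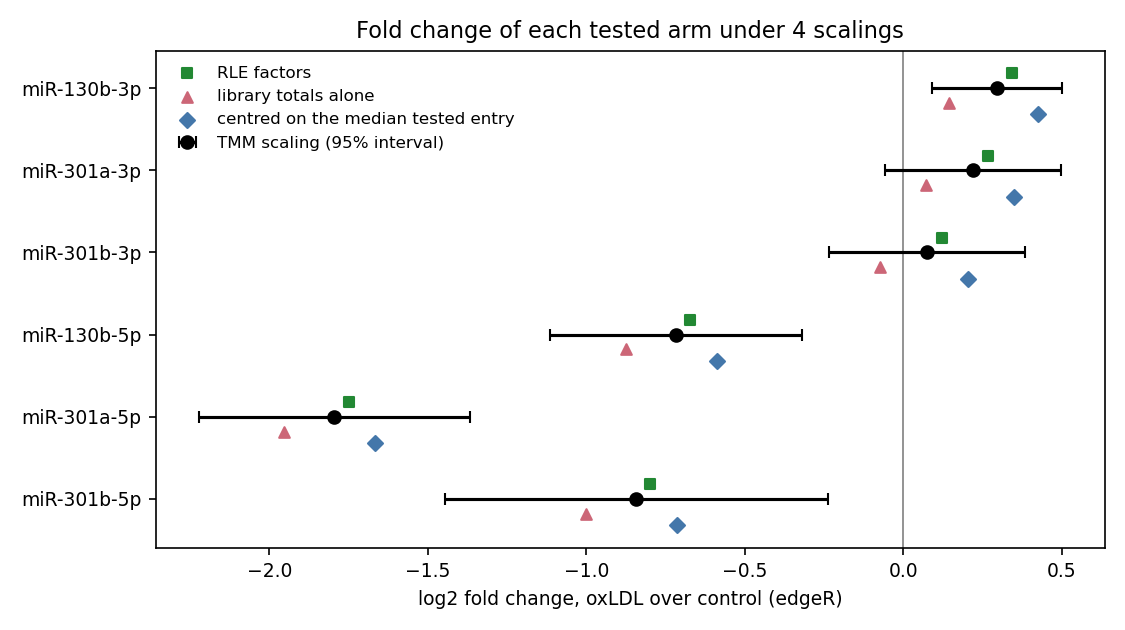
Log2 fold change of each tested family arm, oxLDL over control, from edgeR: circles with 95% intervals are TMM scaling, and squares, triangles and diamonds are RLE factors, library totals and centring on the median entry. The 3 passenger arms lie below 0 under each of these scalings, while miR-301b-3p changes side with library totals.

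Added together, the 4 guide arms amounted to 12196, 11855 and 10900 CPM in control and to 14549, 13225 and 14147 CPM in oxLDL. The group means differed by 1.20 times, and the log2 ratio went from 0.26 to 0.11 with library totals. As a share of all miRNA reads, the guides held 1.23% ± 0.0262 in control and 1.33% ± 0.0972 in oxLDL (SD, n = 3), and on that scale the groups overlapped. Most of the sum was miR-130b-3p, with 66.8% ± 2.75 of the guide reads in control and 68.3% ± 1.20 in oxLDL. The miR-301a guide supplied 26.9% ± 2.24 and 26.2% ± 1.18, and miR-301b-3p 6.26% ± 0.514 and 5.50% ± 0.237. The shares of miR-130b-3p and miR-301a-3p overlapped between the groups, and that of miR-301b-3p was lower in every oxLDL library than in any control. How common such a separation is among shares of this kind was not counted. Because of ligation bias these are shares of reads and not of molecules.

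Among the passengers, miR-301a-5p had 259, 235 and 305 reads in control and 52, 60 and 69 in oxLDL. In CPM these were 35.4, 31.1 and 41.6 against 9.69, 9.85 and 11.6. The groups were far apart, with every oxLDL library below every control library. The log2 fold change was -1.79 (SE 0.185, edgeR adjusted p = 0.000213). It stayed between -1.95 and -1.67 and past the threshold under each of the 14 alternatives, including leaving out each library.

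The more abundant passenger miR-130b-5p was at 406.4, 347.0 and 401.9 CPM in control and at 186.6, 280.0 and 236.3 CPM in oxLDL. All 3 oxLDL libraries were below the controls, with a wider spread among them than for the other passengers. Its log2 fold change was -0.72 (SE 0.172, edgeR adjusted p = 0.0110), and it also passed under each of the 14 alternatives.

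The remaining passenger, miR-301b-5p, comes from the hairpin next to that of miR-130b. Its reads were 55, 39 and 68 in control and 21, 26 and 24 in oxLDL, or 7.53, 5.16 and 9.28 against 3.91, 4.27 and 4.03 CPM. The groups did not overlap. The log2 fold change was -0.84 (SE 0.261, edgeR adjusted p = 0.0310). The call was lost with DESeq2 (adjusted p = 0.111), after centring on the median entry (edgeR adjusted p = 0.0539), with the replicate number as a block (edgeR adjusted p = 0.0731) and without any 1 library other than control replicate 2 (edgeR adjusted p = 0.0646 to 0.0862).

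In every library the arms kept 1 order of level: miR-130b-3p, miR-301a-3p, miR-301b-3p, miR-130b-5p, miR-301a-5p, miR-301b-5p and last miR-130a-3p. No neighbours in this order exchanged places in any of the 6 libraries. The order is one of reads, since adaptors ligate to some RNA ends more readily than to others.

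**Figure D3:**
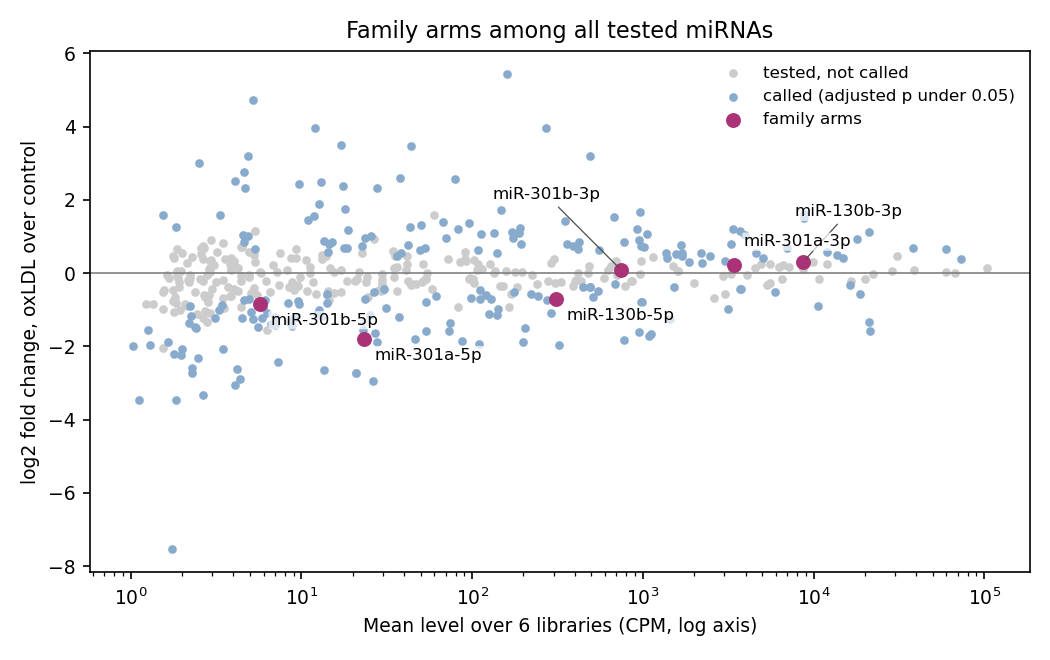
Log2 fold change, oxLDL over control, against mean level in CPM on a log axis for the 475 tested miRNAs, with called entries in blue and the family arms in purple. The guides sit at high levels near 0 and the passengers at lower levels below 0.

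Because both arms of a hairpin are cut from the same precursor and counted in the same library, their ratio does not depend on the scaling between libraries. For miR-301a, there were 11.0, 8.96 and 15.3 passenger reads per 1000 guide reads in control, and 2.44, 2.83 and 3.29 in oxLDL. Every oxLDL value lay below every control value. How common such a separation of ratios was among all hairpins was not counted, so it does not set a hairpin apart. The 5p over 3p ratio was 4.02 times lower in oxLDL (log2 change -2.01, SE 0.250, limma adjusted p = 0.00202 over 124 hairpins).

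For miR-130b, the passenger reads per 1000 guide reads were 49.5, 45.8 and 53.2 in control and 19.1, 30.9 and 24.0 in oxLDL, again without overlap. The ratio was 2.04 times lower (log2 change -1.03, SE 0.225, limma adjusted p = 0.00948). For miR-301b the values were 10.03, 6.39 and 14.7 in control and 4.75, 6.18 and 5.09 in oxLDL, so that control replicate 2 lay close to the oxLDL libraries. Its ratio was 1.83 times lower and did not pass (log2 change -0.87, 95% interval -1.59 to -0.15, limma adjusted p = 0.0570). It passed without control replicate 2 (log2 change -1.17, limma adjusted p = 0.0159) and with a minimum of 30 reads per arm (limma adjusted p = 0.0266).

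**Figure D4:**
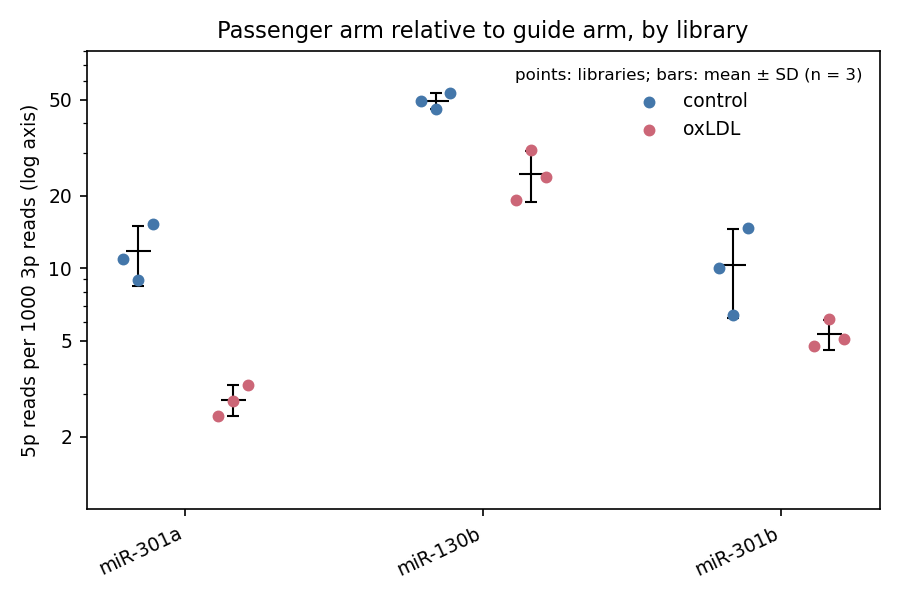
Passenger (5p) reads per 1000 guide (3p) reads for the 3 family hairpins with both arms counted, on a log axis, with points for libraries and bars for the mean ± SD (n = 3). The oxLDL libraries lie below the control libraries for each hairpin, by the widest margin for miR-301a and by the narrowest for miR-301b.

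A lower ratio of the rarer arm was common in these libraries. Of 124 hairpins with both arms counted, the ratio changed in 39.5% (limma adjusted p under 0.05). In 17.7% the 5p arm was lower relative to the 3p arm, and in 30.6% the less abundant arm was lower relative to the other. The opposite change was called in 8.87%. The median log2 change of the less abundant over the more abundant arm was -0.41. The family's falls are to be read against this: the change of miR-301a ranked 7 from the lowest among the 124, at -2.01, and those of miR-130b and miR-301b ranked 29 and 35. Of the less abundant arms themselves, edgeR called 29.8% lower and 12.9% higher, and of the more abundant arms 15.3% lower and 37.1% higher.

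**Figure D5:**
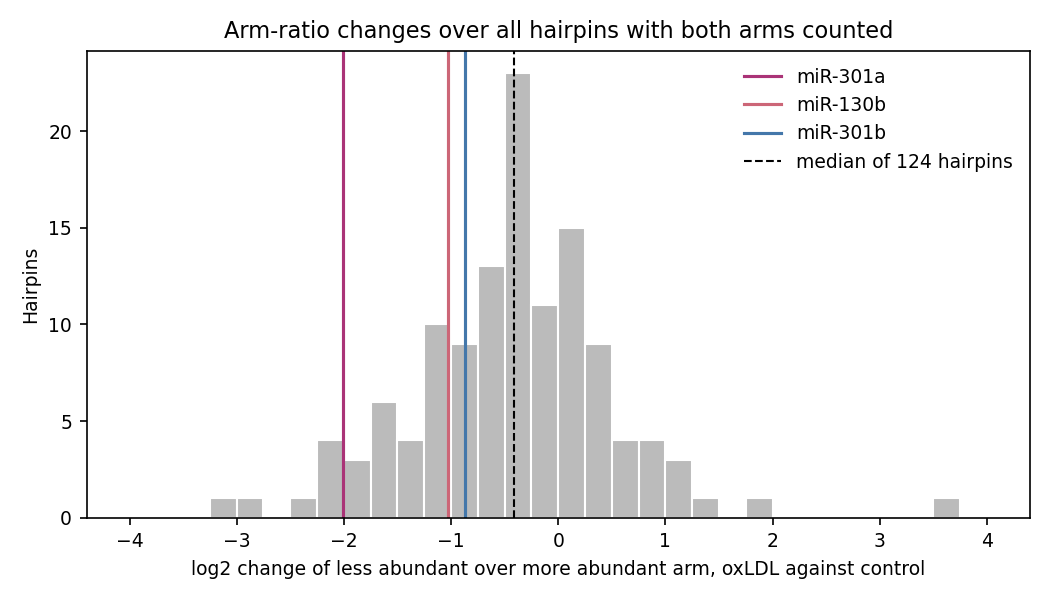
Histogram of the log2 change of the less abundant over the more abundant arm, oxLDL against control, for 124 hairpins, with coloured lines at the family's hairpins and a dashed line at the median of -0.41. Each family hairpin lies to the left of the median, with miR-301a at -2.01 in the lower tail.

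The log2 change of the ratio of miR-301a was lower by 0.98 than that of miR-130b and by 1.14 than that of miR-301b. In both cases the groups did not overlap in this difference of log2 ratios, though how common that is was not counted. The exact 2-sided permutation test gave p = 0.1 for each (0.15 adjusted over the 3 pairs of hairpins compared), the smallest that 3 against 3 libraries allow, so this test could not have passed and does not decide whether the hairpins differ. The difference of log2 ratios between miR-301a and miR-130b was -2.11 ± 0.29 in control and -3.09 ± 0.31 in oxLDL, and that between miR-301a and miR-301b was 0.22 ± 0.22 and -0.92 ± 0.25 (SD, n = 3). The clustered hairpins of miR-130b and miR-301b differed by 0.16 (exact permutation p = 0.8), with overlapping groups. As the test could not have passed, it does not show that these 2 changed alike.

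Reads of different hairpins were also set against each other within each library. There were 87.2, 89.7 and 103.6 miR-301a-5p reads per 1000 miR-130b-5p reads in control and 51.9, 35.2 and 49.1 in oxLDL. These groups did not overlap, and how common that is among pairs of arms was not counted. The guides of these hairpins, in contrast, stood at 393.5, 458.8 and 359.1 miR-301a-3p reads per 1000 miR-130b-3p reads in control and at 406.6, 385.0 and 359.0 in oxLDL, and overlapped. In their cluster on chromosome 16, miR-301b-3p numbered 94.0 ± 11.7 per 1000 miR-130b-3p reads in control and 80.5 ± 4.05 in oxLDL. The passengers of the cluster were at 18.8 ± 4.12 miR-301b-5p per 1000 miR-130b-5p reads and at 17.8 ± 2.92 (SD, n = 3 throughout), and both cluster ratios overlapped between the groups.

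Of those 957 entries, 4 carry the first 6 bases of the family's seed shifted by 1 position: the guides of miR-148a, miR-148b and miR-152, and miR-350-5p. They went in different directions: miR-148a-3p fell 3.56 times, miR-152-3p rose 1.47 times, while miR-148b-3p was at 3343 ± 122 and 3252 ± 241 CPM and miR-350-5p at 133.1 ± 9.49 and 138.1 ± 13.8 CPM in control and oxLDL (SD, n = 3). The rise of miR-152-3p (edgeR adjusted p = 0.0385) was lost in 7 of 14 alternatives, among them library totals (edgeR adjusted p = 0.158).

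Of 3 tested miRNAs described as repressors of PPARG, 1 rose and 1 fell, where 21.7% of all 475 entries were called higher and 24.0% lower. Of these, miR-27b-3p rose 1.31 times (edgeR adjusted p = 0.0130; 0.0787 with library totals and 0.0562 to 0.0699 without control replicate 2 or oxLDL replicate 2 or 3). By contrast miR-128-3p fell 1.73 times (edgeR adjusted p = 0.0232; 0.0876 without control replicate 1), and miR-27a-3p (log2 fold change 0.25) did not pass. Of 13 tested miRNAs described as repressors of ABCA1 or of the LDL receptor, 3 rose and 3 fell, a share near the 45.7% called over all 475 entries, with a median log2 fold change of -3.37e-05 against -0.13 over all 475. The rises were those of miR-26a-5p (2.18 times), miR-101a-3p (1.72 times) and miR-27b-3p. The falls were those of miR-148a-3p, miR-128-3p and miR-10b-5p, which was 3.19 times lower but lost its call without oxLDL replicate 2 or any 1 control library (edgeR adjusted p = 0.0592 to 0.116) and after centring on the median entry (edgeR adjusted p = 0.0510). Its log2 fold change went from -1.67 to -2.44 without oxLDL replicate 1 and to -1.24 without oxLDL replicate 3.

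As a description over the 6 libraries, the entries whose log2 CPM followed miR-301a-3p most closely, among 294 with a mean of at least 10 CPM, were miR-142a-3p (Pearson r 0.976), miR-21a-5p (0.970), miR-542-3p (0.943), miR-677-5p (0.891) and miR-671-5p (0.867). For miR-130b-3p they were miR-3473e (0.979), let-7e-3p (0.978), miR-152-5p (0.974), miR-6516-5p (0.971) and miR-378c (0.965). These points share libraries, depth and the treatment, and each list holds the 5 highest of 294 values.

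The 6 myeloid miRNAs checked were present in every library, with a summed level of 168049 to 186604 CPM in control and 183450 to 206582 CPM in oxLDL. The largest part of this sum was miR-21a-5p, with means of 98668 CPM in control and 109115 CPM in oxLDL, so it mostly follows that entry. Of the 6, miR-146a-5p rose 2.82 times, miR-155-5p fell 1.55 times, and the others were not called. Markers of other cell types were also counted, none at 0 in all libraries, and their calls are to be set beside the 21.7% called higher and 24.0% called lower over all 475 entries. Of 3 erythroid or serum markers, miR-451a fell 3.00 times (summed level 64.2 to 212.6 against 32.5 to 60.2 CPM). The endothelial miR-126a-3p fell 2.13 times (275.8 to 478.0 against 103.5 to 268.0 CPM). Of 5 epithelial markers, miR-200b-3p and miR-200c-3p rose 1.68 and 1.73 times and miR-205-5p fell 6.20 times. That fall was at low counts, with 72, 63 and 26 miR-205-5p reads in control and 8, 3 and 9 in oxLDL. The summed level of the 5 epithelial markers was 76.7 to 110.3 CPM in control and 112.9 to 128.4 CPM in oxLDL. These called markers were named after their values were seen. The calls of miR-155-5p, miR-451a, miR-126a-3p, miR-200b-3p and miR-200c-3p were each lost without at least 1 single library (edgeR adjusted p = 0.0522 to 0.110), and the log2 fold change of miR-451a went from -1.59 to -0.92 without control replicate 2.

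No call was made for the hepatocyte marker, 2 tested of 3 muscle markers, 2 tested of 3 fibroblast markers and 1 tested of 2 neural markers. Summed over all listed markers of a type, tested or not, the levels in control and oxLDL were 5.05 to 85.7 against 1.97 to 11.9 CPM for hepatocyte, 75.1 to 475.8 against 62.7 to 231.4 CPM for muscle, 3566 to 5682 against 2337 to 5124 CPM for fibroblast and 1.09 to 7.41 against 1.48 to 8.57 CPM for neural. The part of these markers in the family's changes was not tested. Without control replicate 2, which held the most hepatocyte and muscle marker reads of all libraries, the log2 fold change of miR-301a-5p was -1.92 and that of miR-130b-5p was -0.81. That library also had the lowest control levels of both arms (31.1 and 347.0 CPM). Leaving it out raises their control means, so these values say nothing about the markers' part.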

How the data were processed

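Small RNA was selected by size on a gel from Trizol-extracted total RNA, given adaptors, amplified and sequenced on an Illumina machine, per the labels' protocols. The deposited table holds the authors' estimated counts per mature miRNA and library without scaling, and 117 of its values were not whole (tolerance 1e-06). Per the submitters' processing notes the genome build was GRCm38.p5; the aligner and the counter are not given in the sources used here.

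Groups were taken from the sample titles. The estimated counts were rounded, filtered by edgeR's own rule, scaled with TMM factors and tested over the whole table by quasi-likelihood in edgeR 4.0.16 under R 4.3.3, with a Benjamini-Hochberg threshold of 0.05. Arm ratios were tested with limma 3.58.1 on the log2 ratio of the arms' reads (pseudocount 0.5) for hairpins with a mean of at least 10 reads per arm and 100 in all. DESeq2 1.42.0 was an alternative. Sequences are from RefSeq (GRCm38.p6), which matched 957 listed entries, and the gene context is from GENCODE M21 (GRCm38). No 2 libraries were alike within sampling noise (smallest chi-square over its degrees of freedom 111). The labels mention no molecular identifiers, so copies made by PCR may have been counted as separate reads.

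The miRNAs named are the members, the other arms of their hairpins, entries with the same or a shifted seed, the called markers, the called ones in lists of PPARG, ABCA1 and LDL receptor repressors, and the 5 entries most like each of 2 guides. Myeloid, erythroid, hepatocyte, muscle, endothelial, fibroblast, epithelial and neural markers were listed too. Members and lists were chosen with earlier results of these data known.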

Additional observations from a re-analysis of the deposited data

How the results depend on the processing

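Under the 14 alternatives to the edgeR fit (scalings, filters, tools, a replicate block, and leaving out each library), miR-301a-5p and miR-130b-5p kept their direction and their call. The count of called entries ran from 161 to 252, against 217. For miR-130b-3p (0.29) the log2 fold change was 0.14 with library totals and 0.31 with no filter. It was 0.18 over entries with at least 10 CPM and 0.30 with the replicate block. The call was lost in each of these settings. It was kept with RLE factors (0.34), median centring (0.42), DESeq2 (0.35) and limma-voom (0.29). The log2 fold change was 0.24 to 0.34 when 1 library was left out, and passed only without control replicate 1. That of miR-301a-3p was 0.35 after median centring, where it passed. That of miR-301b-3p was -0.074 with library totals, -0.036 over entries with at least 10 CPM, and -0.052 (without control replicate 3) to 0.15 when 1 library was left out. For miR-301b-5p it was -0.71 after median centring, -0.81 with the replicate block and -0.80 with DESeq2, where the call was lost, and -1.07 to -0.66 when 1 library was left out. The entry has under 10 CPM and so no value over entries with at least 10 CPM. That of miR-148b-3p (-0.04) was 0.0068 with RLE factors, 0.090 after median centring and 0.012 with DESeq2. That of miR-350-5p (0.05) was -0.10 with library totals, -0.056 over entries with at least 10 CPM and -0.034 without control replicate 3. The log2 ratio of the summed guides was 0.11 with library totals. The arm ratio of miR-301b passed with a minimum of 30 reads per arm (-0.87) and ran from -1.17 to -0.58 when 1 library was left out, while those of miR-301a and miR-130b passed under each of the 10 alternatives tried. Where no cause is given above, the cause was not tested.

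The replicate numbers give no sign of pairing, since deviations of same-numbered libraries from their group means correlated at -0.30, -0.23 and -0.12. The replicate block gave 178 called entries and 39 called arm ratios, against 217 and 49. Counts were low for miR-130a-3p and miR-301b-5p, with at most 11 and 68 reads in a library, which limits what their values can show.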
